A study of Rattus norvegicus with 24 samples.

Results

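Gene expression in the medial gastrocnemius, a mostly fast-twitch calf muscle, was compared between 6 Sed and 6 CC-Sed rats, which are 12 of the 24 rats of the series, across all 10851 genes of the count table. The CC-Sed group (Monocrotaline-Sedentary in the labels) had received a single intraperitoneal injection of monocrotaline, and the Sed group (Saline-Sedentary) the same injection of saline. All 12 were male Wistar rats without treadmill training, and each rat gave 1 library from the left leg. Monocrotaline is a plant alkaloid that injures the blood vessels of the lung, so that the right ventricle fails and cardiac cachexia (CC), the muscle loss of heart failure, follows. The model has limits that bear on every value given here. Rats that died, or whose right ventricle did not remodel, had been left out by the study, and effects of the alkaloid outside the heart and lung cannot be told apart from those of heart failure. The other 12 rats trained on a treadmill with saline (Ex, Saline-Exercised) or monocrotaline (CC-Ex, Monocrotaline-Exercised). Except where they are named, they entered the model only through the scaling of the libraries and the estimate of spread.

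Muscle mass depends on the balance between protein synthesis and protein breakdown. Insulin and IGF-1 act through IRS proteins, PI3-kinase and Akt to activate mTORC1, which drives translation, and to hold the FoxO transcription factors out of the nucleus. When FoxO factors are active, or when glucocorticoids rise, muscle fibres make more of the ubiquitin ligases atrogin-1 (Fbxo32) and MuRF1 (Trim63), more autophagy proteins and more inhibitors of mTORC1. Cachexia, fasting, disuse and denervation are all known to raise these genes.

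The libraries held between 37816239 and 50350554 counts. Every gene of the table had at least 10 counts in each of the 24 rats, so a gene that is silent in any rat is not in it, and the comparison cannot show genes that were switched on or off. The 12 skeletal muscle fibre markers were all measured and together took between 178400 and 265900 CPM (counts per 1000000 counts of the library, scaled by TMM) in Sed and between 137900 and 259900 CPM in CC-Sed. None of the 4 neutrophil markers was in the table. CPM values are not divided by transcript length, so they compare a gene between rats and not one gene with another. Where genes are ranked by abundance or level below, the rank is by CPM, which transcript length also affects. The rats of CC-Sed differed more among themselves than those of Sed. The median biological coefficient of variation was 0.1653 in Sed and 0.2511 in CC-Sed, and the SD of the log2 values was larger in CC-Sed for 78.8% of the genes.

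Of the 10851 genes, 467 rose and 234 fell at an edgeR adjusted p-value under 0.05, which is 4.3% and 2.16% of the table. The counts given below for lists of genes are to be read against these 4.3% and 2.16%. A DEG, by the study's criteria, also had to change by a Log2FC of 1 or more in either direction. The DEGs were 150 genes that rose (1.38% of the table) and 53 that fell (0.488%). Log2FC is the log2 ratio of CC-Sed to Sed throughout. Adjusted p-values come from edgeR's quasi-likelihood test with Benjamini-Hochberg adjustment over the 10851 genes unless another tool is named, SE is the standard error of the Log2FC, and "rose" or "fell" is used only of genes whose adjusted p-value was under 0.05. The split between the directions depended on the scaling. With upper-quartile in place of TMM scaling, 365 genes rose and 337 fell. The median Log2FC over all genes was 0.021 with TMM and -0.061 with upper-quartile scaling, and all values below are with TMM. The DEGs that rose had higher CPM than those that fell, in units that transcript length also affects. The median was 23.5 CPM over the 150 DEGs that rose, 8.49 CPM over the 53 that fell and 13.8 CPM over the table.

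**Figure D1:**
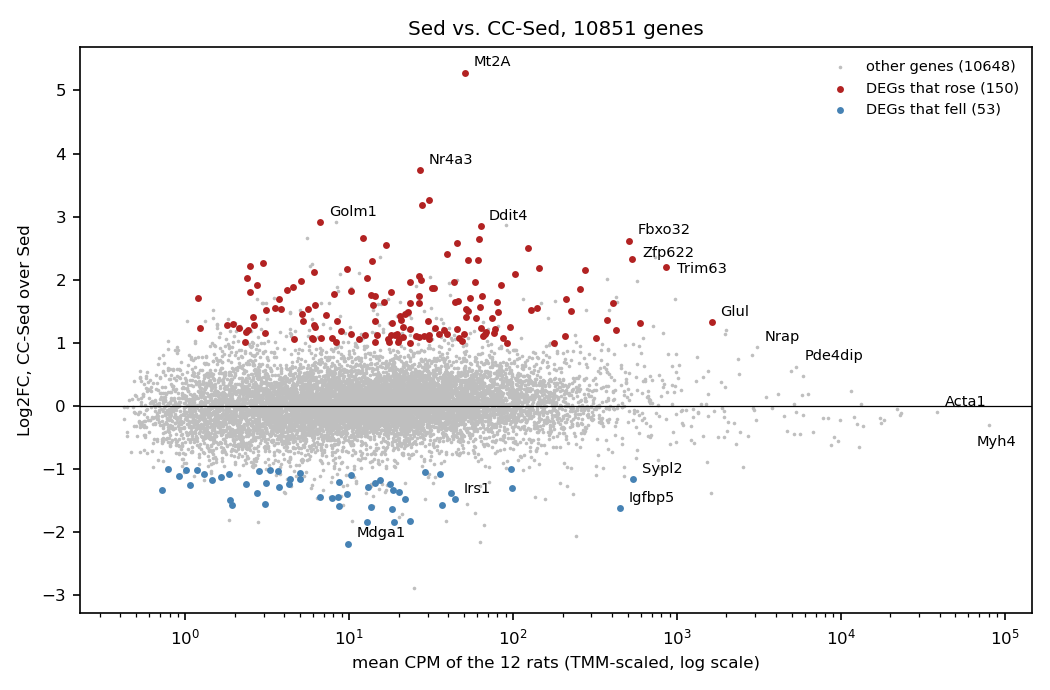
Log2FC (CC-Sed over Sed, vertical axis) against the mean CPM of the 12 rats (horizontal axis, log scale) for the 10851 genes, with DEGs that rose in red, DEGs that fell in blue and other genes in grey. The DEGs reach further up than down, from 5.28 for Mt2A to -2.19 for Mdga1, and among the most abundant genes at the right of the plot the values stay close to 0.

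Each CC-Sed rat was compared with genes it had not helped to choose, by calling DEGs without 1 CC-Sed rat at a time and then reading the rat that had been left out. The 6 Sed rats were not left out. Their median and mean come from rats that helped to choose the genes, which favours values on the called side. The genes called up without replicate 1, 3, 5 or 6 lay above the Sed median in that rat in 98.0% to 100% of cases, with a median log2 ratio to the Sed mean between 1.42 and 2.04. In replicate 2 the share was 77.7% and the median log2 ratio 0.54. In replicate 4 the share was 77.6% and the median log2 ratio 0.32. For genes called down the median log2 ratio was -1.02 to -1.69 in replicates 1, 3, 5 and 6, -0.48 in replicate 2 and -0.38 in replicate 4. These shares and ratios cannot be ranked between rats, since each was read on another set of genes, from 60 genes called up without replicate 6 to 255 without replicate 4. Of the 203 DEGs, 65 (55 up, 10 down) stayed DEGs whichever of the 12 rats was left out, among them Foxo1, Foxo3, Ddit4, Sesn1, Fkbp5, Pik3r1, Cebpd and Gadd45b. By contrast, 83 were DEGs in fewer than 6 of these fits. The count of DEGs itself was smallest without CC-Sed replicate 6, at 73, and largest without CC-Sed replicate 4, at 404.

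The genes that glucocorticoids are known to raise in muscle held more members that rose than any of the other 66 pathway lists. Of the 23 measured members, 14 rose, where 4.3% of the table did, and the median Log2FC of the list was 1.39, against 0.02 over all genes. Of the 23 members, 7 did not overlap between the groups, where 2.32% of all genes lay wholly higher in CC-Sed. The lists share members, so their counts are not separate results. For example, Foxo1 and Foxo3 are counted again among the FoxO factors, and Ddit4 among the mTOR brakes and hypoxia genes. Cebpd is counted again among the IL-6 family genes, and Mt2A among the metallothionein and zinc genes. Fkbp5, a chaperone of the glucocorticoid receptor and a common readout of its activity, counted between 10.5 and 66.4 CPM in Sed (median 32.6) and between 83.5 and 205 CPM in CC-Sed (median 125). Every CC-Sed rat was above every Sed rat, and the Log2FC was 1.91, SE 0.43, adjusted p = 0.0148. Cebpd, a transcription factor induced by glucocorticoids and by IL-6, counted between 7.03 and 24.0 CPM in Sed (median 8.45) and between 25.6 and 126 CPM in CC-Sed (median 72.9), again without overlap, with a Log2FC of 2.58, SE 0.58, adjusted p = 0.0147. Klf15, which in muscle raises amino acid breakdown, had a Log2FC of 1.39, SE 0.35, adjusted p = 0.0236, and Klf9, a related factor, one of 0.74, SE 0.17, adjusted p = 0.0147. The level of a list in a rat was taken as the mean, over its members, of log2(CPM + 0.5) minus the Sed mean of the same gene. On this measure all 6 CC-Sed rats lay above all 6 Sed rats. This mean log2 deviation was between 0.74 (replicate 4) and 1.99 (replicates 3 and 6) in CC-Sed, and no higher than 0.44 in Sed. When 1 of the 12 rats was left out, the count of members that rose was between 7 (without Sed replicate 2) and 14 of 23.

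Both classical atrophy ligases and 2 of the 3 measured FoxO factors rose. Foxo1 counted between 9.63 and 17.2 CPM in Sed (median 12.3) and between 16.9 and 127 CPM in CC-Sed (median 63.4), so that only the lowest CC-Sed rat, replicate 4, reached into the Sed range, and its Log2FC was 2.40, SE 0.52, adjusted p = 0.0138. Foxo3 counted between 9.12 and 22.4 CPM in Sed (median 11.7) and between 15.9 and 64.3 CPM in CC-Sed (median 41.7), with a Log2FC of 1.62, SE 0.35, adjusted p = 0.0137. The third measured factor, Foxo4, had a Log2FC of 0.19 (edgeR adjusted p = 0.184). Fbxo32 counted between 52.3 and 326 CPM in Sed (median 111) and between 179 and 1415 CPM in CC-Sed (median 1042). The Sed rats with most Fbxo32 were replicates 5 and 6, CC-Sed replicate 4 lay among the Sed rats, and the Log2FC was 2.62, SE 0.63, adjusted p = 0.0200. Trim63 counted between 159 and 640.4 CPM in Sed (median 239) and between 348 and 2797 CPM in CC-Sed (median 1313), with 2 CC-Sed rats inside the Sed range and a Log2FC of 2.20, SE 0.65, adjusted p = 0.0479. These were the members that rose among 18 ubiquitin ligases linked to atrophy, whose median Log2FC was 0.30. Fbxo30 (Log2FC 1.20, adjusted p = 0.125) and Cblb (Log2FC 1.06, adjusted p = 0.0621) did not pass in edgeR, and Trim32 was lower in every CC-Sed rat than in every Sed rat without passing (Log2FC -0.49, adjusted p = 0.0890). The calls of the ligases leaned on particular rats. When 1 of the 12 rats was left out in turn, Foxo1 passed in 12 of the 12 fits, Fbxo32 in 9 and Trim63 in 2.

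**Figure D2:**
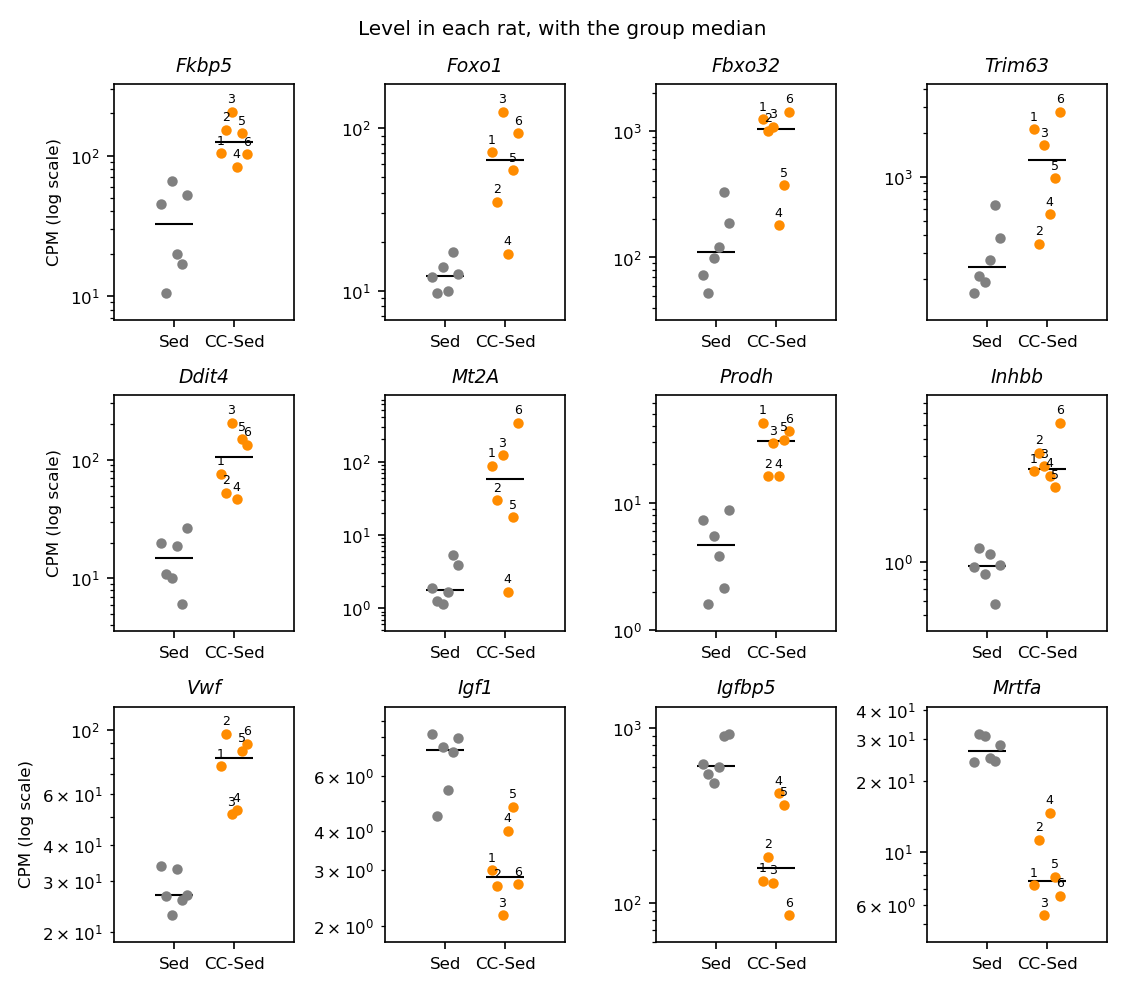
TMM-scaled CPM (log axis) of 12 genes in each Sed rat (grey) and each CC-Sed rat (orange, with its replicate number), with a bar at the group median. For Fkbp5, Ddit4, Inhbb and Prodh the groups do not overlap, while for Foxo1, Fbxo32, Trim63 and Mt2A replicate 4 of CC-Sed lies among the Sed rats.

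Subunits of the proteasome, which degrades what the ligases mark, had higher means in CC-Sed almost throughout, but none passed. The Log2FC was above 0 for 14 of 14 core subunits (median 0.51) and for 22 of 23 regulatory subunits (median 0.55), where 52.5% of all genes had a Log2FC above 0. No subunit passed in edgeR or in DESeq2. At an unadjusted p-value under 0.05, 5 core and 17 regulatory subunits were higher, and limma-voom called 3 and 12. The largest value was that of Psmd8, with a Log2FC of 1.08 (edgeR adjusted p = 0.107). The higher values were those of 3 rats. The mean deviation over the regulatory subunits was 0.90, 0.52 and 1.15 in CC-Sed replicates 1, 3 and 6, while the other CC-Sed rats lay between -0.16 and 0.24 and the Sed rats between -0.15 and 0.39. The immunoproteasome and antigen presentation list did not share this, with a median of -0.11 over 15 genes and no gene passing in edgeR, DESeq2 or limma-voom or at an unadjusted p-value under 0.05.

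In autophagy, 4 of 39 genes rose and Atg16l1 fell (Log2FC -0.31). The genes that rose were Depp1, which is induced by FoxO (Log2FC 1.86, SE 0.44, adjusted p = 0.0189), Gabarapl1 (Log2FC 1.51, SE 0.41, adjusted p = 0.0358) and Gabarapl2 (Log2FC 0.38, SE 0.11, adjusted p = 0.0421), both of which coat the autophagosome, and Bnip3, a mitophagy receptor (Log2FC 1.31, SE 0.39, adjusted p = 0.0484). Map1lc3b had a Log2FC of 1.70 (adjusted p = 0.0563) and the cargo receptor Sqstm1 one of 1.15 (adjusted p = 0.0531). Ctsl, the lysosomal protease cathepsin L, counted between 67.2 and 213 CPM in Sed (median 92.0) and between 104 and 738 CPM in CC-Sed (median 305), with a Log2FC of 1.85, SE 0.46, adjusted p = 0.0252. With Ctsd (Log2FC 0.50) it made 2 of 44 lysosome genes that rose, a share of 4.55% that is close to the 4.3% of the whole table. The median of that list was 0.016, or -0.068 with upper-quartile scaling. The count of autophagy genes that rose was 0 with Sed replicate 2 left out and 10 with CC-Sed replicate 2 left out.

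Several brakes on mTORC1 rose. Ddit4 (REDD1), which glucocorticoids and hypoxia induce, counted between 6.05 and 26.6 CPM in Sed (median 14.8) and between 46.8 and 206 CPM in CC-Sed (median 106), without overlap, and its Log2FC was 2.85, SE 0.62, adjusted p = 0.0138. Eif4ebp1, the translation repressor that mTORC1 phosphorylates, counted between 32.4 and 44.9 CPM in Sed (median 38.8) and between 40.3 and 305 CPM in CC-Sed (median 154). The Sed values of Eif4ebp1 were tight, and CC-Sed replicate 4 alone lay within them (Log2FC 2.09, SE 0.48, adjusted p = 0.0159). Sesn1, a sestrin that restrains mTORC1, had a Log2FC of 2.19, SE 0.51, adjusted p = 0.0177. With Klf15 these made 4 of 16 measured brakes, while Deptor (Log2FC -1.07, adjusted p = 0.0878) and Sesn3 (Log2FC -0.90, adjusted p = 0.0737) had lower means and did not pass. None of the 17 genes for mTOR complexes and their activators passed in edgeR. In this list 4 genes were higher and 2 lower at an unadjusted p-value under 0.05, DESeq2 called 3 and limma-voom 5, and the median was 0.089.

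Genes of insulin and IGF signalling changed in both directions, with 5 of 27 genes up and 4 down and a median of -0.022. The hormone and a substrate fell. Igf1 had a mean of 6.75 ± 1.48 CPM in Sed and 3.22 ± 0.98 CPM in CC-Sed (SD, n = 6 each), and its Log2FC was -1.07, SE 0.24, adjusted p = 0.0153. Irs1, the main insulin receptor substrate of muscle, had a Log2FC of -1.48, SE 0.44, adjusted p = 0.0479, but CC-Sed replicate 2 at 60.5 CPM was above the Sed median of 50.8. Igfbp5, the IGF-binding protein of muscle, counted between 486 and 925 CPM in Sed (median 608) and between 85.3 and 425 CPM in CC-Sed (median 159) without overlap (Log2FC -1.62, SE 0.49, adjusted p = 0.0491). The receptors and the other substrate rose, with Log2FC values of 0.81 for Insr (adjusted p = 0.0137), 1.45 for Igf1r (adjusted p = 0.0307) and 1.96 for Irs2 (adjusted p = 0.0416). Pik3r1, the regulatory subunit of PI3-kinase and also a glucocorticoid target, counted between 15.2 and 29 CPM in Sed (median 21.2) and between 35.5 and 114 CPM in CC-Sed (median 67.8), without overlap, and had a Log2FC of 1.66, SE 0.38, adjusted p = 0.0162. Igfbp3 rose as well (Log2FC 0.73), and Inppl1, a lipid phosphatase that opposes PI3-kinase, fell (Log2FC -0.64). Pik3cd, which encodes a catalytic subunit of PI3-kinase and is outside this list, was a DEG that fell (Log2FC -1.24, SE 0.29, adjusted p = 0.0197). Leaving out 1 rat at a time, Igf1, Insr, Pik3r1 and Igfbp3 passed in 12 of the 12 fits, Inppl1 in 5, Igf1r and Irs2 in 4, Irs1 in 3 and Igfbp5 in 1.

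Genes of the hypoxia response rose in 6 of 17 cases, with a list median of 0.76. They were Ddit4 and Bnip3 (above), Adm, which encodes the vasodilator adrenomedullin (Log2FC 1.83, SE 0.41, adjusted p = 0.0147), Ndrg1 (Log2FC 1.48, SE 0.33, adjusted p = 0.0147), Ankrd37 (Log2FC 1.00) and Egln3, an oxygen-sensing prolyl hydroxylase. Egln3 counted between 97.9 and 166 CPM in Sed (median 129) and between 173 and 383 CPM in CC-Sed (median 294) without overlap. Stc1, a secreted regulator of calcium and phosphate, which hypoxia also induces, was a DEG too. The glucose transporter Slc2a1, in the same list, had a Log2FC of 1.16 and an adjusted p-value of 0.0605. With 1 rat left out, between 3 (without Sed replicate 2) and 8 (without CC-Sed replicate 2) of the hypoxia genes rose.

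Among genes of the IL-6 family and JAK-STAT signalling, 4 of 24 rose and Socs2 fell. The receptors Il6r (Log2FC 2.06, SE 0.54, adjusted p = 0.0288) and Osmr (Log2FC 1.07, SE 0.20, adjusted p = 0.00596), which bind IL-6 and oncostatin M, rose with the kinase Pim3 (Log2FC 1.96, SE 0.36, adjusted p = 0.00596) and Cebpd. Socs2, a suppressor that growth hormone induces through STAT5, counted between 8.88 and 24.8 CPM in Sed (median 10.0) and between 3.24 and 7.12 CPM in CC-Sed (median 4.06). Every CC-Sed rat was below every Sed rat (Log2FC -1.45, SE 0.26, adjusted p = 0.00490). For other inflammatory pathways no such change was seen. No gene of the 28 for NF-kB and TNF receptors passed in edgeR or DESeq2 (4 at an unadjusted p-value under 0.05, 5 in limma-voom, median 0.11), and none of the 20 interferon response genes did (1 unadjusted, 2 in limma-voom, median -0.13). Irgm, an immunity-related GTPase and the DEG that fell with the smallest p-value, counted between 5.00 and 20.0 CPM in Sed (median 11.4) and between 2.99 and 4.83 CPM in CC-Sed (median 4.25) (Log2FC -1.47, SE 0.23, adjusted p = 0.00286).

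Of the NR4A and immediate-early genes, 3 of 18 rose. Nr4a3, an orphan nuclear receptor induced by cAMP and by exercise, counted between 2.64 and 7.13 CPM in Sed (median 3.16) and between 1.85 and 117 CPM in CC-Sed (median 45.0). The increase was steep in 5 rats, and replicate 2 at 1.85 CPM was below every Sed rat (Log2FC 3.73, SE 0.76, adjusted p = 0.0116). Maff, a small Maf factor, rose without overlap (Log2FC 2.66, SE 0.57, adjusted p = 0.0137), and Btg2, an antiproliferative gene, had a Log2FC of 1.16, SE 0.34, adjusted p = 0.0446. With 1 rat left out, Maff passed in 12 of the 12 fits and Btg2 in 2. Growth arrest genes included a further 3 that rose, Gadd45b (Log2FC 1.78, SE 0.41, adjusted p = 0.0159), Pmaip1 (Log2FC 1.23, SE 0.34, adjusted p = 0.0367) and Phlda3 (Log2FC 0.65), so that 4 of the 21 in that list passed with Btg2. In the activin and TGF-beta family, Inhbb, the activin beta B subunit, was one of the most regular changes of the table. It counted between 0.574 and 1.20 CPM in Sed (median 0.948) and between 2.67 and 6.18 CPM in CC-Sed (median 3.39) (Log2FC 2.03, SE 0.33, adjusted p = 0.00287). Of the 29 genes of that family, Smad1 rose (Log2FC 0.47), and Smad3 (Log2FC -0.96) and Smad2 (Log2FC -0.31), which carry the myostatin and activin signal, fell.

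Circadian genes made up a smaller group in which 4 of 20 rose and 1 fell. Nfil3, a repressor that opposes the PAR bZIP factors, rose without overlap (Log2FC 1.72, SE 0.44, adjusted p = 0.0274), and Bhlhe41, a repressor of the clock, fell without overlap (Log2FC -1.59, SE 0.40, adjusted p = 0.0236). The kinase Csnk1d rose by less (Log2FC 0.53). Dbp, a rhythmic output gene of the clock, had a Log2FC of -1.82 and an adjusted p-value of 0.0601. The time of day at which each rat was killed was not among the labels used here. None of the clock genes rose when CC-Sed replicate 6 was left out, and 6 did without CC-Sed replicate 2.

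Some genes of amino acid breakdown rose. In the breakdown of branched-chain amino acids, 5 of 17 genes rose (median 0.24). They included 2 subunits of the rate-limiting dehydrogenase. Bckdha counted between 95.2 and 128 CPM in Sed (median 106) and between 132 and 285 CPM in CC-Sed (median 189) without overlap (Log2FC 0.85, SE 0.17, adjusted p = 0.00899), and Dbt rose as well (Log2FC 1.00, SE 0.25, adjusted p = 0.0225). The downstream enzymes Acadsb, Aldh6a1 and Hibadh rose with Log2FC values of 0.43, 0.36 and 0.45. Prodh, the enzyme that opens proline breakdown, counted between 1.61 and 8.78 CPM in Sed (median 4.67) and between 16.1 and 42.4 CPM in CC-Sed (median 30.3) without overlap (Log2FC 2.56, SE 0.41, adjusted p = 0.00286), while Pycr1, which makes proline, fell (Log2FC -0.64, SE 0.16, adjusted p = 0.0225). Glul, glutamine synthetase, is among the most abundant genes that changed, with a mean of 931 ± 355 CPM in Sed and 2328 ± 868 CPM in CC-Sed (SD, n = 6 each) (Log2FC 1.32, SE 0.32, adjusted p = 0.0206). Slc7a8, which carries large neutral amino acids across the membrane, rose too (Log2FC 2.30, SE 0.65, adjusted p = 0.0396). The count for branched-chain amino acid breakdown was 1 without Sed replicate 2 and 7 without CC-Sed replicate 2.

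Among the lists of glucose, fat and mitochondrial metabolism, fatty acid oxidation was the only one in which more than 2 genes passed. Of 23 enzymes, 7 rose, all 23 had a Log2FC above 0 and the median was 0.63. Acad11, an acyl-CoA dehydrogenase, counted between 23.5 and 37.5 CPM in Sed (median 28.6) and between 67.4 and 151 CPM in CC-Sed (median 94.4) without overlap (Log2FC 1.73, SE 0.27, adjusted p = 0.00286), and Decr1, which handles unsaturated fatty acids, did not overlap either (Log2FC 1.21, SE 0.27, adjusted p = 0.0147). The mitochondrial importer Cpt1b and the trifunctional subunit Hadhb rose by Log2FC values of 0.89 and 0.66. For the enzymes that take over from there, no change was called. Not 1 gene of the TCA cycle (14 genes, median -0.06), of the nuclear-encoded complexes I to IV (34, 4, 8 and 13 genes, medians -0.20, -0.21, -0.10 and -0.015), of ATP synthase (16 genes, median -0.14) or of the mitochondrial genome (13 genes, median -0.18) passed in edgeR or DESeq2. A single gene in these lists, of complex I, had an unadjusted p-value under 0.05, and limma-voom also called 1. These lists diverged between CC-Sed rats. The mean deviation over complex I was 0.60 in replicate 4 and 0.064 in replicate 5, but lay between -0.76 and -0.39 in the other CC-Sed rats, against -0.40 to 0.24 in Sed. Of the fatty acid oxidation enzymes, 3 rose with CC-Sed replicate 6 left out and 10 with replicate 2 left out.

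The level of fibre-type genes differed widely between rats. The 8 measured slow-fibre sarcomere genes had a median Log2FC of 1.58 and the 15 fast-fibre genes one of -0.42. None of either list passed in edgeR (1 slow-fibre gene higher and 6 fast-fibre genes lower at an unadjusted p-value under 0.05, of which DESeq2 called 1 and limma-voom 3, all fast-fibre genes). The spread within groups was wide. The mean deviation over the slow-fibre genes ranged from -1.95 to 1.61 in Sed and from -1.80 (replicate 2) to 2.96 (replicate 5) in CC-Sed. The summed slow-fibre level was 5192 to 11490 CPM in Sed and 7447 to 20630 CPM in CC-Sed. Its part in the rise of fatty acid oxidation genes was not tested.

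**Figure D3:**
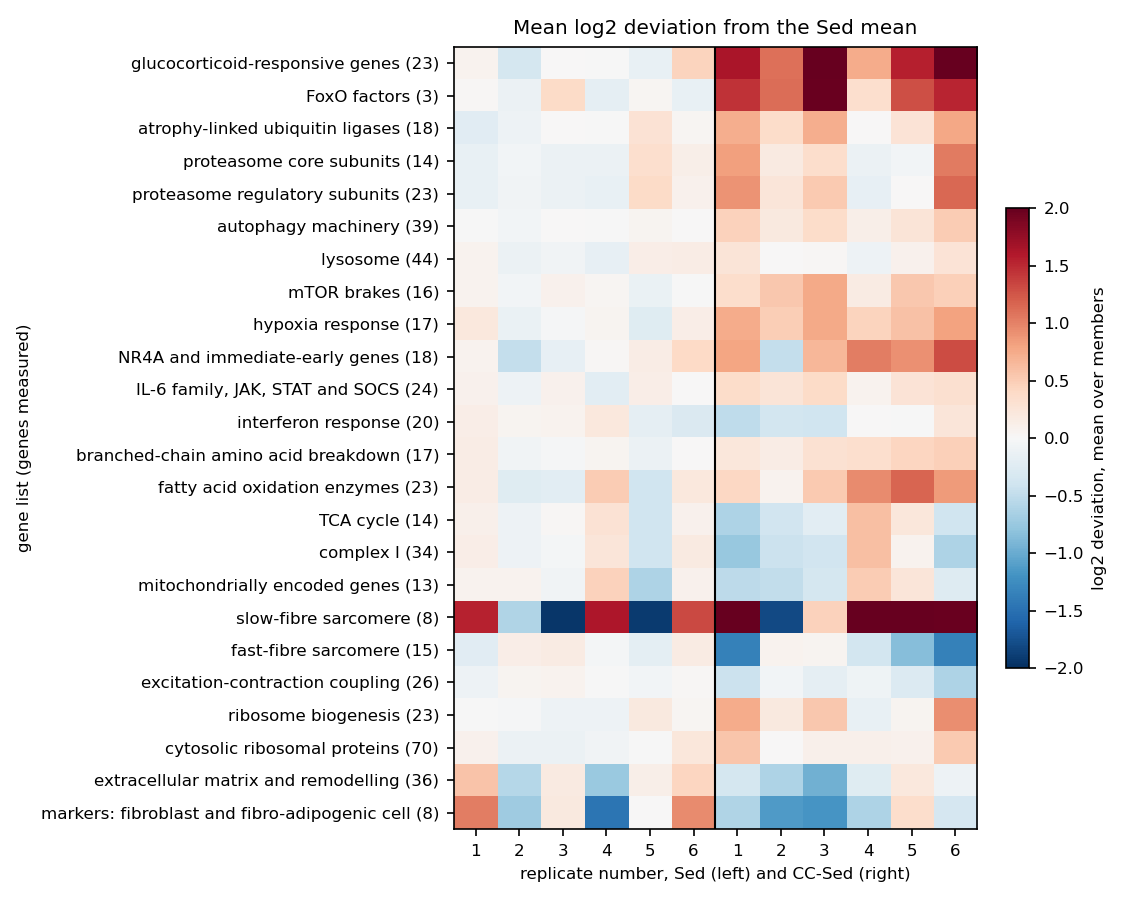
Mean log2 deviation from the Sed mean (colour, red above and blue below, cut at 2) over the members of 24 gene lists (rows) in each of the 12 rats (columns). The glucocorticoid-responsive and hypoxia rows are red in all 6 CC-Sed rats, the proteasome rows, among CC-Sed rats, in replicates 1, 3 and 6 and faintly in 2, and the complex I row has opposite signs in replicates 4 and 5 and the other CC-Sed rats.

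Of 23 glycolysis genes, 2 rose (8.7%, where 4.3% of the table did), Aldoc and Pfkl, neither of which is the main muscle isoform. Aldoc counted between 0.786 and 1.41 CPM in Sed (median 1.08) and between 1.81 and 5.45 CPM in CC-Sed (median 3.90) without overlap (Log2FC 1.80, SE 0.29, adjusted p = 0.00286) and Pfkl had a Log2FC of 1.00, SE 0.16, adjusted p = 0.00286. Pyruvate dehydrogenase kinases inhibit the enzyme that turns pyruvate into acetyl-CoA. Pdk2 rose (Log2FC 0.36, SE 0.11, adjusted p = 0.0494), and passed in 1 of the 12 fits that each omitted a rat. Pdk4 counted between 36.1 and 645 CPM in Sed (median 122) and between 663 and 1738 CPM in CC-Sed (median 1248). Its groups did not overlap, but it did not pass (Log2FC 2.36, adjusted p = 0.0718). Txnip, which blocks glucose uptake, rose (Log2FC 0.82, SE 0.24, adjusted p = 0.0454), and so did Ppp1r3c, a glycogen-targeting phosphatase subunit (Log2FC 0.95, SE 0.28, adjusted p = 0.0478). Acer2, an alkaline ceramidase of the Golgi, had the smallest p-value of the table and counted between 2.81 and 5.16 CPM in Sed (median 3.20) and between 6.95 and 19.2 CPM in CC-Sed (median 17.9).

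Redox, iron and zinc genes changed in small sets. Hmox1, which degrades heme, counted between 1.87 and 7.16 CPM in Sed (median 4.65) and between 7.98 and 54 CPM in CC-Sed (median 22.1) without overlap (Log2FC 2.30, SE 0.53, adjusted p = 0.0164). Its repressor Bach1 rose (Log2FC 1.54, SE 0.47, adjusted p = 0.0495), and passed in 2 of the 12 fits that each omitted a rat. Among the 30 NRF2 and antioxidant genes Cat, which encodes catalase, and Gclc, for glutathione synthesis, also rose (Log2FC 0.87 and 0.67). Mt2A, a metallothionein that binds zinc and is induced by glucocorticoids and by metals, had the largest Log2FC of all, 5.28, SE 1.37, adjusted p = 0.0286. Its values in CC-Sed replicates 1 to 6 were 87.6, 29.5, 121, 1.67, 17.4 and 338 CPM, against 1.13 to 5.39 CPM in Sed. The rat with the least, replicate 4, was inside the Sed range. Of the zinc importers of the ZIP family, 4 fell. Slc39a1 (Log2FC -0.45), Slc39a3 (Log2FC -0.63) and Slc39a10 (Log2FC -0.66) did not overlap between the groups, Slc39a13 had a Log2FC of -0.66, and their adjusted p-values were 0.0103, 0.0136, 0.0207 and 0.0463. Slc39a14, which also carries iron, rose slightly (Log2FC 0.27, SE 0.08, adjusted p = 0.0446).

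Genes for RNA-binding proteins and the translation apparatus had small differences, mostly upward. Of 29 Srsf and Hnrnp genes, 5 rose, Hnrnpa1 (Log2FC 0.86, SE 0.19, adjusted p = 0.0148), Srsf5 (Log2FC 0.59, SE 0.16, adjusted p = 0.0350), Hnrnpu (Log2FC 0.60), Hnrnpa3 (Log2FC 0.65) and Hnrnpr (Log2FC 0.35). Of 60 translation factors, 5 rose (8.33%, where 4.3% of the table did), or 4 with upper-quartile scaling. Among the 5 were 2 DEGs, Eif4ebp1 and Eif4g3 (Log2FC 1.07, SE 0.32, adjusted p = 0.0476). The 70 cytosolic ribosomal protein genes had a median of 0.25, and 67 had a Log2FC above 0, but only Rps10 rose (Log2FC 0.35) and Rps27l fell (Log2FC -0.43). All 23 ribosome biogenesis genes had a Log2FC above 0 (median 0.39), and Npm1, nucleophosmin, rose (Log2FC 0.75, SE 0.19, adjusted p = 0.0277). With upper-quartile scaling the medians were 0.14 for the translation factors, 0.16 for Srsf and Hnrnp genes, 0.16 for ribosomal proteins and 0.30 for ribosome biogenesis. The mean deviation over the ribosome biogenesis genes was 0.74, 0.54 and 0.92 in CC-Sed replicates 1, 3 and 6, between -0.14 and 0.19 in the other CC-Sed rats and between -0.10 and 0.19 in Sed. Zfp622, a factor that joins the large ribosomal subunit as it matures, was the DEG with the highest CC-Sed level among those whose groups did not overlap and whose Log2FC was over 2. It counted between 102 and 273 CPM in Sed (median 180.3) and between 415 and 1427 CPM in CC-Sed (median 812) (Log2FC 2.33, SE 0.44, adjusted p = 0.00688). With CC-Sed replicate 6 left out, no Srsf, Hnrnp or translation factor gene rose, and with replicate 4 left out, 9 Srsf and Hnrnp genes, 16 translation factors and 11 ribosomal protein genes did.

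**Figure D4:**
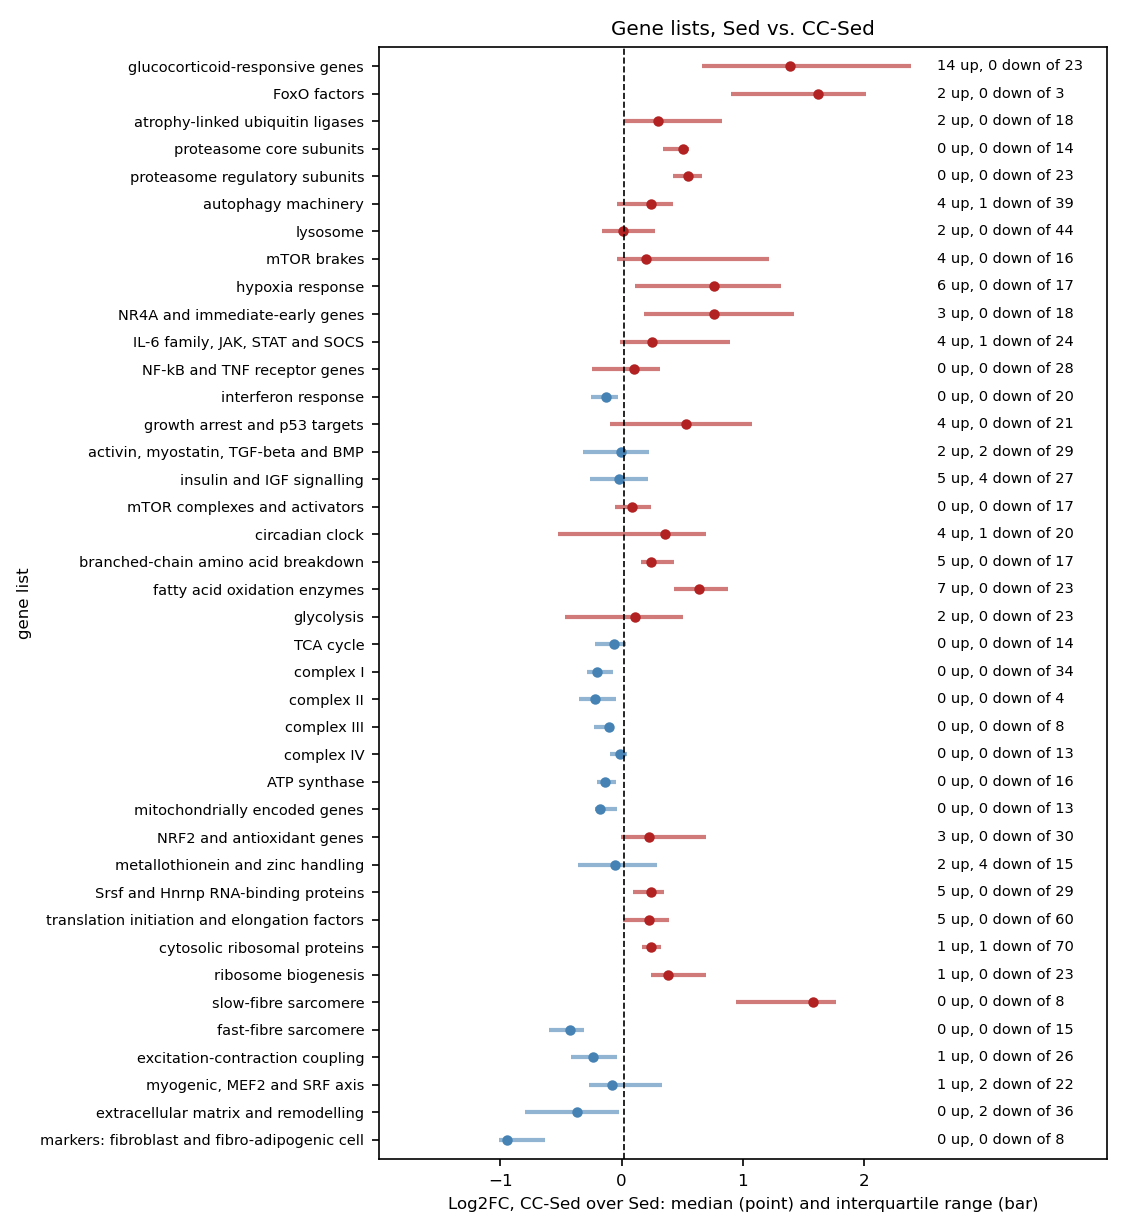
Median Log2FC (CC-Sed over Sed, horizontal axis; point) with the interquartile range of the members (bar) for 40 gene lists, with the number of genes that rose and fell at an adjusted p-value under 0.05 and the number measured given at the right. The dashed line is the median over all genes, 0.02. The lists furthest to the right with members that rose are the FoxO factors (1.62) and the glucocorticoid-responsive genes (1.39), which share Foxo1 and Foxo3.

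Lower mean values were seen in the extracellular matrix, but the groups overlapped. The mean deviation over its genes was -0.74 to 0.58 in Sed and -0.96 to 0.21 in CC-Sed. The list had a median Log2FC of -0.37, and 27 of 36 genes were below 0. Col15a1 (Log2FC -1.58, SE 0.45, adjusted p = 0.0419) and Col18a1 (Log2FC -0.88, SE 0.24, adjusted p = 0.0367), which encode basement membrane collagens, fell. The fibrillar collagens Col1a1, Col1a2 and Col3a1 had Log2FC values of -1.09, -0.97 and -0.98 and did not pass (adjusted p = 0.266, 0.266 and 0.280). The 8 fibroblast markers took 404 to 2863 CPM together in Sed and 487 to 1514 CPM in CC-Sed, none passed in edgeR, DESeq2 or limma-voom or at an unadjusted p-value under 0.05, and their median was -0.94. In whole muscle, fewer cells of a type and less RNA per cell cannot be told apart. Other secreted factors were among the DEGs that fell. Angptl2, an angiopoietin-like protein, counted between 29.4 and 44.4 CPM in Sed (median 35.6) and between 3.32 and 22.0 CPM in CC-Sed (median 7.54) without overlap (Log2FC -1.83, SE 0.53, adjusted p = 0.0440), and Egf (Log2FC -1.22, SE 0.37, adjusted p = 0.0482) and Scube2 (Log2FC -1.49, SE 0.36, adjusted p = 0.0210) fell too. Scube2 passed in 9 of the 12 fits that each omitted a rat, Col18a1 in 4, Col15a1 in 3, and Angptl2 and Egf in 2.

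Several regulators of muscle gene expression fell. Mrtfa, the actin-sensing coactivator of SRF, counted between 24.1 and 31.6 CPM in Sed (median 26.6) and between 5.43 and 14.7 CPM in CC-Sed (median 7.56), the widest gap of any gene that was lower in CC-Sed (Log2FC -1.63, SE 0.34, adjusted p = 0.0133). Hopx, a homeodomain protein that binds SRF, fell without overlap (Log2FC -1.21, SE 0.22, adjusted p = 0.00596), and Mamstr, a coactivator of MEF2, fell (Log2FC -1.18, SE 0.28, adjusted p = 0.0187). Myod1, the myogenic factor typical of fast fibres, had a Log2FC of -2.16, just short of the threshold (adjusted p = 0.0538), whereas Myf6 (MRF4) rose (Log2FC 0.96, SE 0.20, adjusted p = 0.0137). Ky, a protein of the Z-disc region that is needed for muscle growth, was at the same border with the second widest gap, counting between 267 and 563 CPM in Sed (median 344) and between 7.21 and 180.4 CPM in CC-Sed (median 93.3) (Log2FC -2.07, adjusted p = 0.0546). In excitation-contraction coupling, 20 of 26 genes had a Log2FC below 0 (median -0.24). Where 1.29% of all genes lay wholly lower in CC-Sed, 3 of the 26 did, without passing. These were Jph2, which ties the T-tubule to the sarcoplasmic reticulum (Log2FC -1.27, adjusted p = 0.0610), Cacnb1, the calcium channel beta subunit (Log2FC -0.63, adjusted p = 0.0605), and Camk2a (Log2FC -0.76, adjusted p = 0.0804). Of these 26 genes, 1 rose and 0 fell in edgeR, 1 was called higher and 2 lower in DESeq2 and 1 and 7 in limma-voom, and 2 were higher and 9 lower at an unadjusted p-value under 0.05.

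Endothelial genes differed in both directions. Vwf, von Willebrand factor, counted between 22.9 and 33.9 CPM in Sed (median 26.8) and between 51 and 96.8 CPM in CC-Sed (median 79.7) without overlap (Log2FC 1.41, SE 0.26, adjusted p = 0.00596). Aplnr, the apelin receptor, counted between 10.6 and 26.1 CPM in Sed (median 21.0) and between 1.53 and 8.93 CPM in CC-Sed (median 6.41) and was lower in every CC-Sed rat (Log2FC -1.84, SE 0.45, adjusted p = 0.0215). The 14 measured endothelial markers had a median of 0.0024, and Vwf was the only one to pass in edgeR. At an unadjusted p-value under 0.05, 4 were higher and 2 lower, and DESeq2 and limma-voom each called 2 higher and 1 lower. The others lay between -0.58 (Plvap) and 0.63 (Kdr) in Log2FC. The median was -0.076 with upper-quartile scaling and -0.14 in limma-voom. Adamts9, a secreted protease of vessels and matrix, rose without overlap (Log2FC 1.75, SE 0.27, adjusted p = 0.00286). Macrophage markers (11 measured, median 0.0047 with TMM and -0.078 with upper-quartile scaling) and smooth muscle and pericyte markers (7 measured, median -0.19) did not pass in edgeR, DESeq2 or limma-voom, nor at an unadjusted p-value under 0.05.

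No change was called in the most abundant genes. The 20 genes with the highest mean CPM, from Myh4, the fast IIB myosin, and Mt-co1 to Mt-nd5, included none that passed in edgeR or DESeq2, while limma-voom called 1 (3 had an unadjusted p-value under 0.05). Myh4 counted between 64625 and 118121 CPM in Sed (median 87157) and between 42052 and 119919 CPM in CC-Sed (median 54927), with a Log2FC of -0.31 (adjusted p = 0.472), and Acta1, skeletal actin, had a Log2FC of -0.11 (adjusted p = 0.726). The 10 most abundant genes held 28.5% to 34.1% of all counts in Sed and 24.0% to 32.3% in CC-Sed, with means of 31.8% ± 1.95 and 28.8% ± 3.26 (SD, n = 6 each), a difference that the two-sided exact permutation test did not call (p = 0.0823). The same exact permutation test gave p = 0.0173 without Sed replicate 5 and p = 0.0433 without CC-Sed replicate 4. The mitochondrially encoded genes held 14.3% to 24.7% in Sed and 13.6% to 25.5% in CC-Sed (exact permutation p = 0.697). Among the 500 most abundant genes, 46 rose and 4 fell, which is 10% against the 6.46% of the whole table that passed.

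Among the 15 most abundant genes that passed, 13 rose. Pde4dip (myomegalin), an anchoring protein for a cAMP phosphodiesterase, was the most abundant of them, at a mean of 4198 ± 643 CPM in Sed and 6461 ± 1158 CPM in CC-Sed (SD, n = 6 each) (Log2FC 0.62, SE 0.16, adjusted p = 0.0270). Nrap, a protein of myofibril assembly, counted between 1723 and 2548 CPM in Sed (median 1989.6) and between 1876 and 7107 CPM in CC-Sed (median 3494) (Log2FC 0.93, SE 0.23, adjusted p = 0.0210), with CC-Sed replicate 2 inside the Sed range. Naca, the nascent polypeptide-associated subunit, rose (Log2FC 0.82, SE 0.20, adjusted p = 0.0200), and Svil, the actin-binding supervillin, a Log2FC of 0.64 (adjusted p = 0.0133). Ybx3 (Log2FC 0.56), Ndrg2 (Log2FC 0.45), Trim63, Txnip, Bnip3 and Glul were in the same group. Klhl31, an adaptor for ubiquitin ligation in muscle (Log2FC -0.86, SE 0.24, adjusted p = 0.0372), and Sypl2 (mitsugumin-29), a triad membrane protein, fell. Sypl2 counted between 547 and 865 CPM in Sed (median 762) and between 112 and 542 CPM in CC-Sed (median 342) without overlap (Log2FC -1.17, SE 0.36, adjusted p = 0.0499). It passed in 2 of the 12 fits that each omitted a rat.

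**Figure D5:**
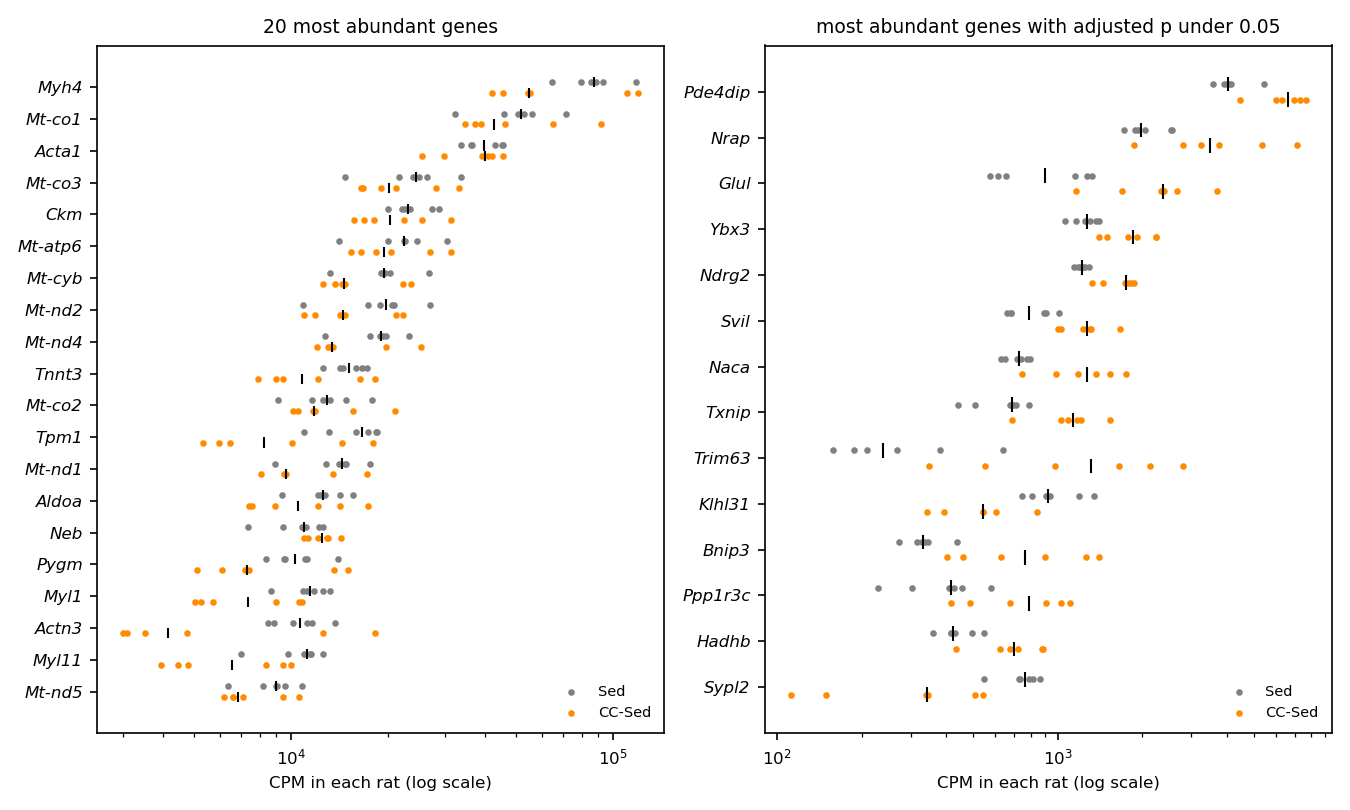
TMM-scaled CPM (log axis) in each Sed rat (grey) and CC-Sed rat (orange) of the 20 most abundant genes (left) and of 14 of the 15 most abundant genes with an adjusted p-value under 0.05 (right), with bars at the group medians. The groups overlap for most genes at the left, and at the right 12 of the 14 genes are higher in CC-Sed while Klhl31 and Sypl2 are lower.

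A total of 392 genes (3.61% of the table) did not overlap between the 6 Sed and 6 CC-Sed rats, 252 of them higher in CC-Sed (2.32%) and 140 lower (1.29%). This is a different set from the DEGs. It holds 85 of the 203 DEGs (41.9%), 59 up and 26 down, and 139 of the 392 did not pass the adjusted test. Separation did not need a large change, since 138 of the 392 had a Log2FC under 0.5 in size. The gap, taken as the log2 ratio of the lowest rat of the higher group to the highest rat of the lower, had a median of 0.079 and was above 1 for 2 genes, Inhbb (1.15) and Adamts9 (1.08). The other genes with the widest gaps upward were Stc1 (gap 0.93), Prodh (0.88), Acad11 (0.85), Ddit4 (0.82), Golm1 (0.79), Gpr157 (0.65), Zfp622 (0.61) and Tmem252 (0.59). Downward, Mrtfa (0.72) and Ky (0.57) were followed by Slc27a3, a fatty acid transport protein (0.47), Armcx2 (0.43), Angptl2 (0.41) and the oxysterol-binding protein Osbpl7 (0.41). Stc1 counted between 0.717 and 1.60 CPM in Sed (median 1.15) and between 3.04 and 7.08 CPM in CC-Sed (median 3.88). Golm1, a Golgi membrane protein, counted between 0.697 and 2.27 CPM in Sed (median 1.54) and between 3.93 and 19.9 CPM in CC-Sed (median 12.9) (Log2FC 2.91, SE 0.49, adjusted p = 0.00309). With fewer rats the groups separate more easily, and the total was 791 when CC-Sed replicate 2 was left out and 1217 when replicate 4 was. The balance of directions depended on the scaling. With upper-quartile scaling 152 genes were higher and 240 lower, and with CPM that had no TMM scaling 110 were higher and 165 lower, 275 in all.

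Among the largest increases outside the lists above were those of Spsb1, an adaptor that targets the TGF-beta receptor for degradation, of Arrdc2, an arrestin-like gene, and of Sdc4, a heparan sulfate proteoglycan. Spsb1 counted between 2.80 and 9.38 CPM in Sed (median 5.02) and between 11.4 and 109.6 CPM in CC-Sed (median 46.2) without overlap (Log2FC 3.18, SE 0.73, adjusted p = 0.0164). Arrdc2 had a Log2FC of 2.64 (adjusted p = 0.0334) and Sdc4 one of 2.32 (adjusted p = 0.0137). Errfi1, an inhibitor of the EGF receptor and a member of the glucocorticoid-responsive list, had a Log2FC of 2.50 (adjusted p = 0.0463). The largest decreases were those of Mdga1, an adhesion protein that counted between 9.80 and 22.8 CPM in Sed (median 17.3) and between 0.381 and 9.07 CPM in CC-Sed (median 1.81) without overlap (Log2FC -2.19, SE 0.63, adjusted p = 0.0446), and of the mitochondrial carrier Slc25a30 (Log2FC -1.84, SE 0.40, adjusted p = 0.0138). With 1 rat left out, Sdc4 and Slc25a30 passed in 12 of the 12 fits, Spsb1 in 11, Arrdc2 in 4, and Mdga1 and Errfi1 in 2. Tns1, a tensin that links integrins to actin, was the most abundant of the 10 DEGs with the smallest p-values that rose, at a mean of 117 ± 29.1 CPM in Sed and 332 ± 124 CPM in CC-Sed (SD, n = 6 each) (Log2FC 1.5, SE 0.25, adjusted p = 0.00287). Other DEGs with small p-values were Sema6b and Tmem252, which rose (Log2FC 1.35 and 1.83), and Hs3st1, Pcbd1, Anxa10, Chst7 and Susd2, which fell (Log2FC -1.55, -1.57, -1.28, -1.11 and -1.25).

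The same contrast was available in the 12 trained rats. Their levels were not averaged into the Log2FC of the sedentary comparison, but the TMM scaling and the estimate of spread were shared with them. In CC-Ex against Ex, 148 of the 150 DEGs that rose and 52 of the 53 that fell had a Log2FC of the same sign, where 81% of all genes had. The median over the DEGs that rose was 1.44 in the sedentary and 1.09 in the trained rats, and over the DEGs that fell -1.26 and -0.86. Choosing the genes in the sedentary rats favours larger values there. Lists differed in this respect. The glucocorticoid-responsive genes had medians of 1.39 and 1.68, and the fatty acid oxidation enzymes of 0.63 and 0.044. The difference between the sedentary and the trained effect was not tested for a list. For single genes, the interaction term in edgeR had an adjusted p-value under 0.05 for 0 genes and an unadjusted p-value under 0.05 for 154.

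Promoters of the genes that moved together were read from RefSeq (build GRCr8, 250 bases before to 50 after the start), where 112 of the 150 DEGs that rose, 43 of the 53 that fell and 8699 of the 10851 genes had an entry. The promoters below are shown because Trim63 is an atrophy ligase that rose (Fbxo32 had no entry), and Ddit4 and Bnip3 are the members shared by the mTOR or autophagy and the hypoxia lists. Capitals mark the FoxO motif TGTTTAC in Trim63 and the core of the hypoxia response element, ACGTG, in Ddit4 and Bnip3, each searched on both strands. In Bnip3 the 2 matches overlap within an E-box.
Trim63 promoter, chr5:151816986-151817285, + strand: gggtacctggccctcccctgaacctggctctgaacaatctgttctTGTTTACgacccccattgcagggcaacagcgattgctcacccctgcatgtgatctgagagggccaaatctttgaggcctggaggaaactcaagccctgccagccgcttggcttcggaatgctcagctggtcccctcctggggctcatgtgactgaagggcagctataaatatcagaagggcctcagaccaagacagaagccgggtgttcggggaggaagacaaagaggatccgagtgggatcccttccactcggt
Ddit4 promoter, chr20:28436988-28437287, - strand: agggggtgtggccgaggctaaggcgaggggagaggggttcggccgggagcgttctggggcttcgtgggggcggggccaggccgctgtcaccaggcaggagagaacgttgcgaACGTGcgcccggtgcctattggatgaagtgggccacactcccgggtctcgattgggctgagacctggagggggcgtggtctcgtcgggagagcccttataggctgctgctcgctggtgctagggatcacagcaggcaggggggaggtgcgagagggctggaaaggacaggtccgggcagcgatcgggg
Bnip3 promoter, chr1:203154913-203155212, - strand: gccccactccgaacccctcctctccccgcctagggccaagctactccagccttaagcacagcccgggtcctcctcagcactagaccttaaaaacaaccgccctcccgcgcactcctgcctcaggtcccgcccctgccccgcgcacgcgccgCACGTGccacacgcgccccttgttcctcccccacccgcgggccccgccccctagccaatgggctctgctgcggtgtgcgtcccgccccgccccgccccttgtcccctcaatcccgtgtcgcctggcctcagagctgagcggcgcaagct
The FoxO motif was in the promoters of 3 of the 112 DEGs that rose (2.68%), Trim63, Pnpla7 and Lrrc2, and in 2.43% of all 8699. The hypoxia core was in 27.7% of the DEGs that rose, 27.9% of those that fell and 25.9% of all, and the E-box CACGTG, which contains it, in 10.7%, 16.3% and 9.78%. The CRE TGACGTCA was found in 2.68% of the DEGs that rose and 3.23% of all, the NR4A element AAAGGTCA in 0.893% and 0.793%, the antioxidant element TGACNNNGC in 14.3% and 14.9%, and the STAT element TTCNNNGAA in 3.57% and 6.64%. The full palindrome of the glucocorticoid response element was in none of the 8699 promoters, so its search could not separate the sets of genes. It required every fixed letter to match, and sites that differ from the palindrome were not searched. A match or its absence describes these 300 bases alone.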

How the data were processed

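RNA-seq of the medial gastrocnemius was measured in 24 male Wistar rats in 4 groups of 6, each library from a separate animal and grouped by its label. The authors trimmed the reads with Trim Galore, quantified them with Salmon (build mRatBN7.2), summarised them to genes with tximport and deposited 1 table of estimated counts, which held no value under 10. The study's own test used DESeq2 1.44.0. Here the estimated counts were rounded and fitted in R 4.3.3 with edgeR 4.0.16 (TMM, quasi-likelihood test) in 1 model of the 24 rats, with the contrast CC-Sed minus Sed and adjustment over 10851 genes. Of its rows, 13 had no symbol and 39 shared one with another row. The library kit keeps strand, but the strand setting of the quantification was not given in the sources used here. Close paralogs such as the metallothioneins may share reads.

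The CPM were TMM-scaled, and the list values per rat used log2(CPM + 0.5). A list was described by its counts and median. Shares of counts were compared by a two-sided exact permutation test over 924 arrangements, whose smallest possible p is 0.00216. The totals were between 37816239 and 50350554 counts, and the spread between rats, on which the tests rest, includes the counting error.

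Named genes were the 15 DEGs with the largest and the 15 with the smallest Log2FC, the 10 with the smallest p in each direction, the 20 most abundant genes, the 15 most abundant that passed, the 10 widest gaps in each direction, and up to 6 members of each list with the smallest p, with cell type markers. Deptor, Egf, Fbxo30, Irs2, Mamstr, Map1lc3b, Pik3cd, Slc7a8, Pnpla7 and Lrrc2 were added after their values were seen. Values of 4 genes that the rule names are not reported here. The lists and genes were chosen with earlier results of these data known. Alternatives were DESeq2 1.42.0, limma-voom with sample weights (limma 3.58.1), upper-quartile scaling, a mean of at least 100 counts, no filter, the 12 sedentary rats alone, the library or replicate number in the model, leaving out the 10 most abundant genes, and leaving out each rat. The fits were tested on simulated data.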

Additional observations from a re-analysis of the deposited data

Results flagged for a closer look

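In 22 of 314 readings (157 named genes in 2 groups of 6 rats, 7.01%), the highest or lowest rat lay so far from its nearest neighbour that the gap, as a share of the group's range, was above Dixon's 95% critical value. Chance flags about 1 in 20 groups if values are normally distributed. The CPM read here were not log-transformed and need not be, so their chance rate is not known. None of the 12 rats held more than 5 of these values, and Sed replicate 3 held the 5.

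In Sed, replicate 3 was the highest rat for Foxo3 (22.4 CPM), Hopx (19.6 CPM), Irs1 (152.5 CPM), Pde4dip (5444 CPM) and Socs2 (24.8 CPM). Without it the Sed levels of Hopx, Irs1 and Socs2 lie closer to those of CC-Sed, and the levels of Foxo3 and Pde4dip further from them. Sed replicate 1 was highest for Acer2 (5.16 CPM) and Ankrd37 (1.37 CPM), replicate 5 for Eif4g3 (266 CPM) and Pnpla7 (155 CPM), replicate 6 for Myf6 (176 CPM) and Nr4a3 (7.13 CPM), and replicate 4 for Kdr (34.5 CPM). Sed replicate 6 was lowest for Acadsb (37.9 CPM).

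In CC-Sed, replicate 6 was the highest rat for Hmox1 (54 CPM) and Mt2A (338 CPM), so the mean of Mt2A rests in large part on that rat. Replicate 2 was highest for Irs1 (60.5 CPM) and Myod1 (67.0 CPM), both genes with lower medians in CC-Sed. Replicate 4 was highest for Plvap (11.1 CPM) and Slc25a30 (19.5 CPM) and lowest for Srsf5 (50.5 CPM), each towards the Sed level. Replicate 3 was highest for Gpr157 (127 CPM) and replicate 1 lowest for Irgm (2.99 CPM).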

How the results depend on the processing

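Against 203 DEGs and 701 genes with an adjusted p-value under 0.05 in edgeR, DESeq2 gave 318 and 1331 and limma-voom with sample weights 383 and 2474. The distinct pathway-list genes that passed numbered 129 in edgeR, 241 in DESeq2 and 420 in limma-voom. Leaving out 1 rat gave 73 to 404 DEGs (fewest without CC-Sed replicate 6), 173 to 1726 genes that passed, 44 to 297 list genes, 415 to 1217 genes without overlap and a difference in the share of the 10 most abundant genes of -3.64 to -1.98 percentage points. The counts changed by no more than 1.5 times with the other scalings or with a mean of at least 100 counts. The same held with the 12 sedentary rats alone and with the library number in the model. All 10851 genes passed edgeR's expression filter, so the fit with no filter only repeated the main fit. Without overlap, 152 genes were higher and 240 lower with upper-quartile scaling and 110 and 165 with unscaled CPM, against 252 and 140 with TMM.

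The labels do not say whether the replicate numbers pair the rats. Correlations between same-numbered rats of the groups ran from -0.505 to 0.357, and 1 of 6 rats correlated best with its own number. Pairing was not seen in these values, which cannot exclude it. With the replicate block 172 DEGs (118 up, 54 down) and 553 genes (347 up, 206 down) passed.

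Of 131 named genes that passed, 53 also passed in every alternative run for single genes and none changed direction. They lost the call in 602 of 2489 values, 538 of these with 1 rat left out. Mt-co1, which did not pass, had negative values with upper-quartile scaling (-0.0599), the block (-0.012) and limma-voom (-0.11), and from -0.21 to 0.14 without 1 rat. List medians near 0 changed sign. For lysosome genes the median was -0.00304 in DESeq2 and -0.068 with upper-quartile scaling, for complex IV 0.022 with the library number, and for insulin and IGF signalling 0.08 with the block and 0.024 in limma-voom. For endothelial markers it was -0.015 in DESeq2, -0.076 with upper-quartile scaling, -0.012 in the 12 rats, -0.000604 with the block, -0.015 with the library number and -0.14 in limma-voom. For macrophage markers it was -0.011, -0.078, -0.0069 and -0.00736 in the first 3 of these settings and with the library number. Without 1 rat these medians ran from -0.026 to 0.047 for lysosome genes, -0.29 to 0.046 for complex IV, -0.072 to 0.055 for insulin and IGF signalling, -0.25 to 0.0055 for the TCA cycle, -0.0065 to 0.14 for mTOR complexes, -0.18 to 0.098 for endothelial and -0.20 to 0.37 for macrophage markers. The cause of these differences was not tested. Genes under 10 counts in any rat were not in the table.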
